A study of Mus musculus with 13 samples.

Results

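The genes of the cytosolic ribosomal proteins were examined in the enamel organ, the epithelium that builds dental enamel. Members were the protein-coding genes whose symbols begin with Rps or Rpl followed by a digit, or are Rpsa, Rplp0, Rplp1 or Rplp2, after removal of ribosomal S6 kinases and genes named as pseudogenes. This gave 86 of the 48709 genes in the count table. They comprise 31 proteins of the small (40S) subunit, 46 of the large (60S) subunit, 8 paralogs of such proteins, and Rps19bp1, which encodes a protein that binds RPS19 and is not itself a ribosomal protein. The 77 genes of the 2 subunits are called canonical below. Fau and Rack1 encode ribosomal proteins under other symbols and were described apart.

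RNA came from enamel organs dissected from lower incisors at postnatal day 11. The Het group held 5 libraries of mice with 1 Tgfbr2 allele carrying the substitution G357W in the type II TGF-beta receptor, as a model of Loeys-Dietz syndrome, in which connective tissue is weak. The WT group held 8 libraries of littermates with both Tgfbr2 alleles intact. The labels name neither a treatment nor a strain. The labels give the substitution as the genotype of the mouse, with no tissue-specific driver, so cells outside the dental epithelium carry it too.

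Each cytosolic ribosome is a small subunit, which reads the messenger RNA, joined to a large subunit, which forms the peptide bonds and feeds the new protein through an exit tunnel. Most of the proteins are present as a single copy in each ribosome, and many of their messenger RNAs start with a run of pyrimidines, the 5' terminal oligopyrimidine (TOP) motif, through which mTORC1 sets their translation. Mammalian genomes hold many processed pseudogenes of these genes, copies of spliced messenger RNA whose sequence is close to that of the parent. Ameloblasts of the secretory stage, the cells of the enamel organ that lay down enamel, make and export matrix proteins in large amounts.

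The libraries held 18852382 to 26508410 counts. The enamel matrix genes Amelx, Ambn and Enam took 15.0% to 27.9% of the counts of a library, so the defining products of the labelled tissue were present in all 13. Of 13 tested skeletal muscle markers, 13 had a lower Het estimate and 0 passed the threshold, against 0.0857% of all genes. Their summed level was 14.9 to 94.4 CPM (counts scaled to library size) in Het and 12.5 to 218 CPM in WT, with the highest values in Het 1-2 and WT 1-4. Of 11 osteoblast and bone markers, 11 had a lower Het estimate and 0 passed. Other marker lists had estimates on both sides of 0, and 0 genes of them passed. Lower in Het were 6 of 14 enamel organ markers, 6 of 10 of fibroblasts and mesenchyme, and 4 of 11 of endothelium and pericytes. For macrophages and other immune cells it was 3 of 11, and for erythroid cells 4 of 7. Over all 16328 genes tested, 8305 were lower. Libraries are named here by genotype and the number pair of the count table's columns. The first number, 1, 4 or 5, is called the prefix, and no source used here says what it means. For the ribosomal protein genes, WT 4-3 stood apart as high and WT 1-1 and WT 4-4 as low, as described further on. The part of these differences between libraries in the results below was not tested.

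The start regions were searched for runs of pyrimidines and for the TOP motif that the family is known for. RefSeq promoter windows (GRCm38.p6, 250 bases before to 50 after the annotated start) were found for 57 of the 77 canonical genes. Within 50 bases on each side of the start, an unbroken run of at least 8 pyrimidines was present in 48 of them (84.2%, exact 95% interval 72.1% to 92.5%). The share was 39.3% over all 27025 gene symbols with a window and 37.3% over the 10726 protein-coding genes tested here with a window. Windows were grouped by gene symbol. A gene was counted once, as a match if any of its windows matched, and its longest run was taken over all its windows. Genes with several windows thus had more chances to match. Shares of promoters here and below are shares of such genes. Runs of at least 10 were present in 42 genes, or 73.7%, against 20.6% of all promoters and 20.1% of those of tested protein-coding genes. The median longest run was 11 bases in the canonical genes and 7 in all promoters. The following 30-base stretches show the longest run (in capitals) of the member with the longest, of members described below for their level or their difference between genotypes, and of members with short runs.
Rpl7a: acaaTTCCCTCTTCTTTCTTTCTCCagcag
Rpl11: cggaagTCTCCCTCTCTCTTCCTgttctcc
Rpl15: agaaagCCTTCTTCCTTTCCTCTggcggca
Rpl4: agcgtggCCTTCTCCTCTCCCCgtcatggt
Rps25: ccaccgggCTTCCTTTTTTTCCgacatctt
Rps15: cagcccgtaCTTCCTTTTCCgagtaaccgc
Rps6: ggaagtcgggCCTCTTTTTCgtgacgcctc
Rplp0: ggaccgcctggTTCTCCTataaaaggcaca
Rpl24: acctcaaacccaCTCCCCgccaatgctgta
Rpl3l: tggtggggaggCCCCTTCCTaacctgcagg

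The stretches are read 5' to 3' along each gene. They lie at chr2:26910789-26910818 (Rpl7a, plus strand), chr4:136053357-136053386 (Rpl11, minus), chr14:18270967-18270996 (Rpl15, minus) and chr9:64173406-64173435 (Rpl4, plus). That of Rps25 lies at chr9:44407684-44407713 (plus), of Rps15 at chr10:80292447-80292476 (plus), of Rps6 at chr4:86857349-86857378 (minus) and of Rplp0 at chr5:115559467-115559496 (plus). The last pair lie at chr16:55966227-55966256 (Rpl24, plus) and chr17:24727846-24727875 (Rpl3l, plus). The runs measure 21 bases in Rpl7a, 17 in Rpl11 and Rpl15, 15 in Rpl4, 14 in Rps25, 11 in Rps15 and 10 in Rps6. They measure 7 bases in Rplp0 and 6 in Rpl24, below the 8 bases counted above. In Rps6 the capitals begin at the base before the annotated start, and in Rpl15 the run spans it. Other runs lie away from the annotated end of the messenger RNA: they begin 13 bases past the start in Rpl11, 25 in Rps15, 26 in Rpl4 and 31 in Rpl3l, and that of Rps25 ends before the start.

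A TOP start in the strict sense was a C at the annotated first base followed by at least 4 pyrimidines. It was present in 13 of 57 genes (22.8%, exact 95% interval 12.7% to 35.8%). The shares were 3.01% of all promoters and 2.93% of those of tested protein-coding genes. Allowing it within 5 bases of the annotated start gave 27 genes (47.4%, exact 95% interval 34.0% to 61.0%). Here the shares were 21.2% of all promoters and 23.8% of those of tested protein-coding genes. The core of the binding site of ETS factors such as GABPA, CCGGAA or its reverse complement TTCCGG, was present on either strand anywhere in the window of 32 genes (56.1%, exact 95% interval 42.4% to 69.3%). It was present in 16.7% of all promoters and in 29.7% of those of tested protein-coding genes. The letters TATAAA were found on neither strand in the 50 bases before the start of any of the 57 genes (exact 95% interval 0% to 6.27%). They were found there in 4.17% of all promoters and 2.47% of those of tested protein-coding genes, both inside that interval. In Rplp0 the same letters stand just past the annotated start, as the printed stretch shows. Of the 8 paralogs with a window, 5 had a run of at least 8 pyrimidines and 2 a run of at least 10. The ETS core can overlap a pyrimidine run, since TTCC is part of both. These matches describe letters in the reference and were not measured in these libraries.

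Counts assigned to the ribosomal protein genes were a small part of the libraries. How reads that fit several copies of a gene were counted is unknown, so these are shares of counts and not of messages. The 86 members took a mean of 0.729% (SD 0.046) of a Het library's counts and 0.708% (SD 0.054) of a WT library's. The 5 Het values were 0.751%, 0.788%, 0.701%, 0.736% and 0.669%, and the WT values ran from 0.651% through a median of 0.698% to 0.813%. The ranges overlapped, and the difference of the means, 0.021 percentage points, was smaller than the SD of either group. With the enamel matrix genes left out of the denominator the shares were 0.959% ± 0.057 and 0.919% ± 0.077.

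Rpl3 held 40.2% of all member counts (mean of 13 libraries, 35.2% to 50.1%). It encodes a large-subunit protein that reaches toward the peptidyl transferase centre and lies on chromosome 15 (80077791 to 80091868, minus strand, GRCm38). By CPM it ranked 20 among all genes of the table. Its level was 2661, 3297, 2362, 2722 and 2944 CPM in the 5 Het libraries. In WT it ran from 2448 through a median of 2829 to 3763 CPM, so the Het values lay within or below the WT range. Per kilobase of exon, which adjusts for gene length only, Rpl3 stood at 881 ± 110 CPM in the 5 Het libraries and 931 ± 166 in the 8 WT libraries (mean ± SD, as for the levels that follow). This was 48.2 ± 8.8 times the median canonical gene (SD over 13 libraries, 37.3 to 72.5) and 5.63 times the next gene, Rplp1. Without Rpl3 the members took 0.441% ± 0.030 of the counts in Het and 0.419% ± 0.035 in WT. A row for the processed pseudogene Rpl3-ps1 held counts equal to 13.2% of those of Rpl3 (12.4% to 13.7% over the libraries), which were not added to Rpl3.

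Apart from Rpl3, the canonical genes covered a wide range of levels per kilobase. The median canonical gene stood at 18.8 CPM per kilobase, and the middle 50% of genes lay between 11.6 and 43.9. The median over all tested genes with a length was 2.40, and the canonical median was above 88.8% of those 16289 genes. Both subunits were alike in this, with medians of 19.2 for the 40S genes and 17.8 for the 60S genes. The highest of the remaining genes was 288 times the lowest. Counts on gene models measure RNA and not the protein that enters the ribosome.

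**Figure D1:**
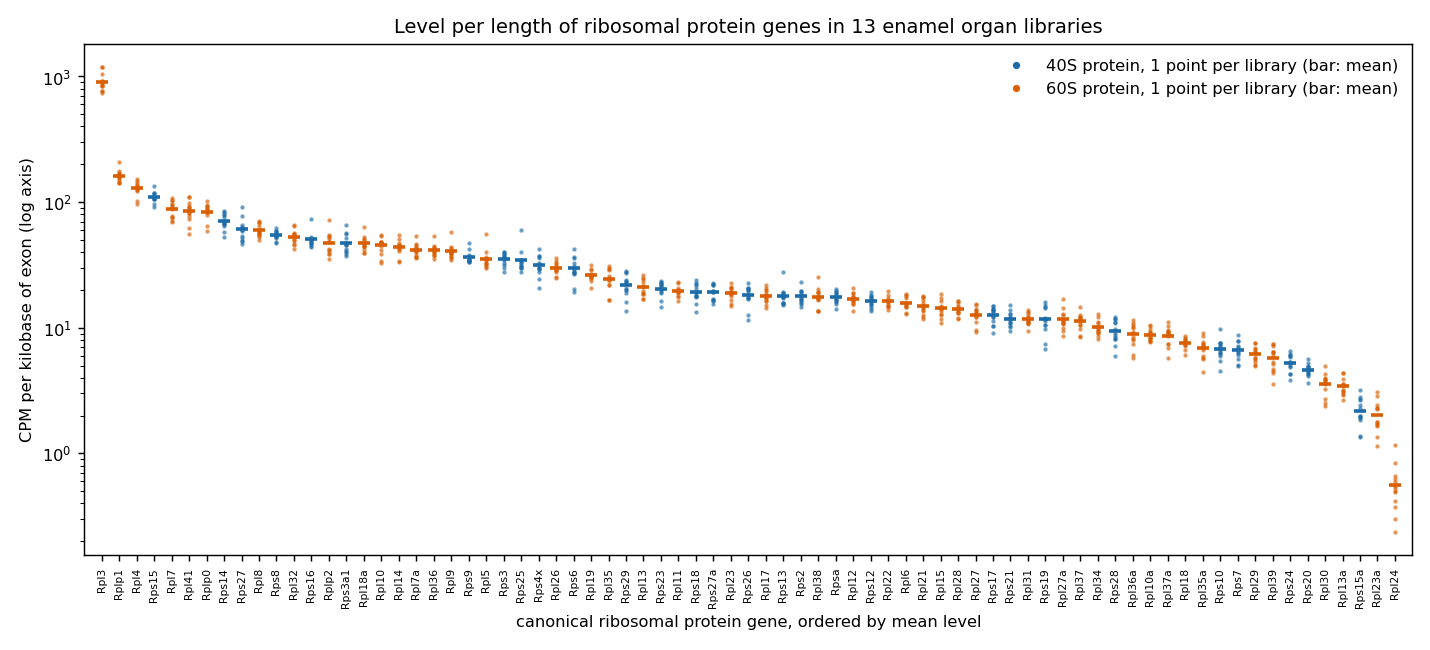
Level of the canonical genes reported here in CPM per kilobase of exon (log axis), ordered by the mean over 13 libraries. Each point is 1 library and each bar the mean. Rpl3 lies alone at the top, between 744 and 1185, and Rpl24 at the bottom, between 0.237 and 1.18.

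The highest genes after Rpl3 included Rplp1, Rpl4, Rps15 and Rpl7. Rplp1, a protein of the stalk that recruits elongation factors, stood at 156 ± 9.7 CPM per kilobase in Het and 166 ± 21.9 in WT. Rpl4, which lines the exit tunnel, stood at 138 ± 11.2 and 124 ± 16.2. Rps15, a protein of the small subunit, stood at 109 ± 5.78 in Het and 111 ± 13.5 in WT. Rpl7 was at 81.3 ± 10.3 and 91.9 ± 13.3. This order depends on the length used: by the length of the main transcript instead of all annotated exons, 2 of the 6 highest genes stayed among the 6 highest, while Rpl3 stayed first. By the longest annotated transcript, 5 of 6 stayed.

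The lowest canonical genes were Rpl24, Rpl23a, Rps15a, Rpl13a, Rpl30 and Rps20. Rpl24, mutated in Belly spot and tail mice, had 14, 13, 11, 15 and 13 counts in the Het libraries and 6 to 25 in WT. Its level was 0.538 ± 0.098 CPM per kilobase in Het and 0.576 ± 0.307 in WT. Another annotated gene, Gm28037, covers 47.0% of its exon bases on the same strand. Rpl23a, a docking site for factors that meet the nascent chain, stood at 2.03 ± 0.67 and 2.01 ± 0.55. Other genes cover 62.3% of its exon bases, and 81.7% of its 75-base windows occur in another gene. Rps15a stood at 2.26 ± 0.46 in Het, with 4.13% of its windows elsewhere and no overlapping gene. Both values are set against a long gene model, with 6270 exon bases and a main transcript of 5179 bases for a protein of 130 residues. Its mean of 13.8 CPM without length scaling was near the 13.4 CPM of Rps7. Rpl13a (3.26 ± 0.37), Rpl30 (3.53 ± 0.49) and Rps20 (4.52 ± 0.33) followed in Het. By the main transcript 5 of the 6 stayed among the lowest, and Rpl24 stayed last.

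Sequence shared with other genes limits what a count on a ribosomal protein gene means. The reads were 75 bases long, and for each gene the share of 75-base windows of its main transcript that also occur in an annotated transcript of a gene elsewhere was counted. Of the 77 canonical genes, 75 had such windows, and Rps3 was among those with none. The median share was 39.9% and the highest 98.5%, in Rps27, whose windows recur in its intronless copy Rps27rt. For 29 genes the share was at least 50%. These genes had a median level of 19.2 CPM per kilobase and the other 48 genes one of 17.9. Over the 77 genes the Spearman correlation of level with this share was 0.02, and with protein length 0.31, a description of genes that share the same libraries. Unannotated copies were not searched, since no genome was used here.

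**Figure D2:**
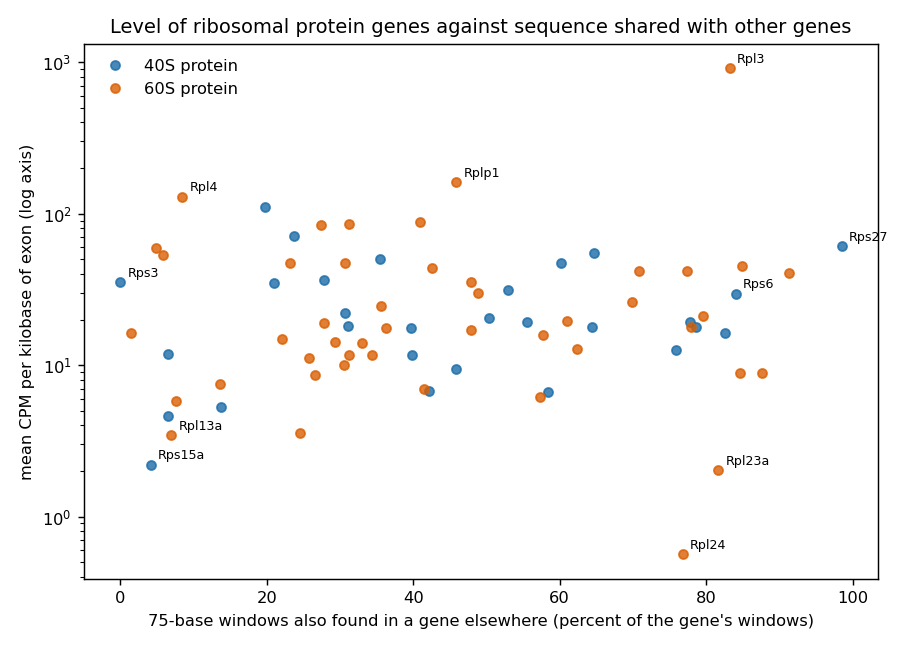
Mean level of the canonical genes reported here in CPM per kilobase (log axis) against the percentage of their 75-base windows that also occur in a gene elsewhere, 1 point per gene. Genes at both ends of the level order lie among those with most windows shared: Rpl3 at 83.2%, Rpl23a at 81.7% and Rpl24 at 76.8%.

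Rows of ribosomal protein pseudogenes carried counts of their own. There were 675 such rows, of which 573 had a count and 402 had at most 10 counts in all 13 libraries together. They summed to 251967 counts, beside 2182602 on the members, and Rpl3-ps1 held 45.8% of them. Per library they equalled 10.8% to 12.4% of the member counts, with means of 11.4% ± 0.30 in Het and 11.6% ± 0.50 in WT. The genotypes therefore did not differ in this ratio beyond the spread. Adding these rows to the members gave shares of 0.813% ± 0.052 in Het and 0.791% ± 0.062 in WT.

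In the comparison of Het with WT, 0 of 85 members tested passed edgeR's quasi-likelihood test at a Benjamini-Hochberg adjusted p under 0.05, against 0.0857% of all 16328 genes tested. By direction the count was 0 higher and 0 lower in Het, against 0.0429% of all genes each way. Rpl10l, with 1 count in all libraries, was not tested. At an unadjusted p under 0.05 there were 0 of 85 members, against 6.9% of all genes (2.72% higher and 4.18% lower in Het). DESeq2 called 0 members too, against 0.402% of the genes it tested, and gave 0 with an unadjusted p under 0.05. In limma-voom with sample weights the counts of members were 0 called and 4 of 85 (4.71%) with an unadjusted p under 0.05, against 8.72% of all genes. The Het and WT ranges were apart for 0 members and for 0.49% of all genes. The median log2 fold change (Het minus WT throughout) was -0.02 over the 85 members, with 40 above and 45 below 0. Over all genes tested it was -0.0044.

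The estimates were narrow as well as near 0. They ran from -0.46 to 0.28, with the middle 50% between -0.09 and 0.07, against -0.15 and 0.12 for all genes. The whole 95% interval lay inside a 1.5-fold change in either direction for 80 of 85 members (94.1%), against 58.7% of all genes. The 5 exceptions were Rpl24, Rpl39, Rpl39l, Rpl3l and Rps27rt, of which Rpl39 had 94 to 264 counts per library and the other 4 at most 63. Inside a 1.25-fold change lay 33 members (38.8%) and 17.0% of all genes. The median SE was 0.12 for members and 0.17 for all genes, and members are on the whole more highly expressed. For the other members the interval reached past 1.25-fold in some direction, so a difference of that size was not excluded for them. All members were measured in the same libraries and the canonical genes varied together, as described further on. These intervals and their counts are thus not separate results. Bulk counts cannot tell fewer cells of a type from less RNA per cell.

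**Figure D3:**
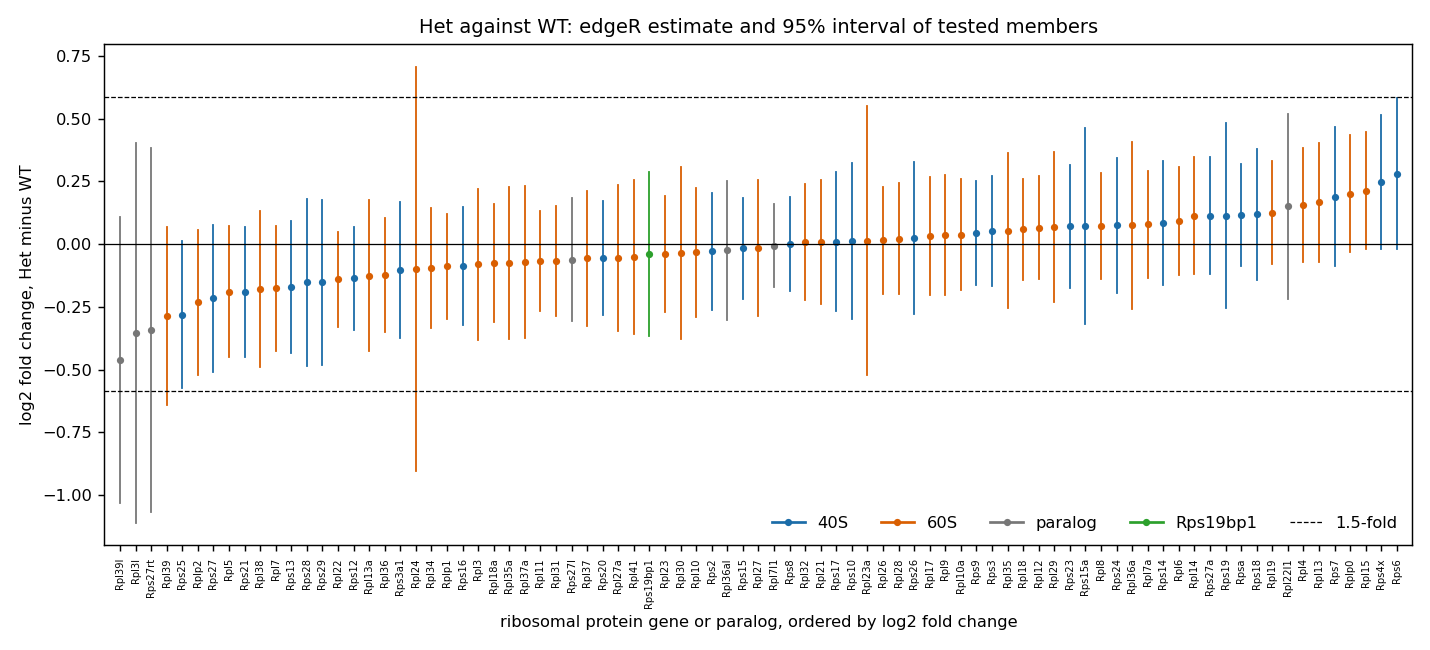
Log2 fold change, Het minus WT, of the tested members reported here, ordered by size, with the edgeR 95% interval as a line. Dashed lines mark 1.5-fold. Every interval includes 0, and those of Rpl24, Rpl39, Rpl39l, Rpl3l and Rps27rt reach past the dashed lines.

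The 40S genes had a median log2 fold change of 0.01, with 17 of 31 above 0. Rps25, which takes part in initiation at internal ribosome entry sites, had the smallest p of all members. It lies on chromosome 9 (44407139 to 44410427, plus strand). Its level was 75.2, 93.0, 80.1, 80.2 and 82.8 CPM in Het, and in WT ran from 82.1 through a median of 91.6 to 161 CPM. The Het libraries sat in the lower part, 3 of 5 below every WT library, and the WT maximum came from WT 4-3 alone. The log2 fold change was -0.28 ± 0.14 (± SE here and below, edgeR adjusted p = 0.741). It was -0.21, -0.37 and -0.23 within prefixes 1, 4 and 5. The value for prefix 4 includes WT 4-3, at 7.33 log2 CPM. In that prefix WT 4-1 and WT 4-4 stood at 6.54 and 6.56, and Het 4-2 and Het 4-5 at 6.54 and 6.33. Exons of Ccdc84 and Trappc4 cover 24.8% of its exon bases on the other strand, and the library kit does not mark strand.

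Rps6, the substrate of the S6 kinases and a classical readout of mTORC1 activity through its phosphorylation, had the highest estimate. It lies on chromosome 4 (86854660 to 86857412, minus strand). Its level was 57.3, 43.6, 44.1, 66.9 and 52.0 CPM in Het, and in WT ran from 30.3 through a median of 44.0 to 58.1 CPM. The ranges overlapped over most of their length, with Het 5-5 above every WT library. The log2 fold change was 0.28 ± 0.14 (edgeR adjusted p = 0.742). It was 0.52, 0.17 and 0.14 within the prefixes. Of its windows, 84.1% occur in another gene. Phosphorylation cannot be read from RNA.

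Rps4x, the X-linked form of the S4 protein, stood at 61.0, 52.8, 48.4, 68.5 and 53.4 CPM in Het and from 33.9 through 47.7 to 60.4 CPM in WT. Its log2 fold change was 0.25 ± 0.13 (edgeR adjusted p = 0.749). As for Rps6, Het 5-5 was the highest library and WT 1-1 or WT 4-4 the lowest. Rps7, which binds MDM2, stood at 15.7, 12.2, 12.99, 17.5 and 14.1 CPM in Het and from 10.1 through 13.1 to 15.9 CPM in WT, a log2 fold change of 0.19 ± 0.13 (edgeR adjusted p = 0.805). Rpsa, the laminin receptor precursor, whose human counterpart is altered in congenital absence of the spleen, stood at 51.4, 62.2, 56.9, 61.3 and 58.7 CPM in Het and from 44.8 through 52.8 to 65.0 in WT. Its log2 fold change was 0.12 ± 0.10 (edgeR adjusted p = 0.838), and every Het value fell inside the WT range.

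The 60S genes had a median log2 fold change of -0.02, with 22 of 46 above 0. Among the proteins of the stalk, the estimates lay on both sides of 0. Rplp0, the base of the stalk, stood at 157, 138, 147, 168 and 149 CPM in Het and from 97.9 through 138 to 154 CPM in WT. Its log2 fold change was 0.20 ± 0.11 (edgeR adjusted p = 0.76). Rplp2, which binds to that base together with Rplp1, stood at 80.6, 110, 86.1, 80.1 and 87.2 CPM in Het and from 73.2 through 103 to 148 CPM in WT, a log2 fold change of -0.23 ± 0.14 (edgeR adjusted p = 0.771). Het 4-2 lay apart from the other Het libraries for Rplp2. Rplp1 had a log2 fold change of -0.09 ± 0.10 (edgeR adjusted p = 0.887), and the groups of all 3 stalk genes overlapped.

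Rpl5 and Rpl11 form a particle with 5S rRNA that binds MDM2 when ribosome assembly fails, and so couples assembly to p53. Rpl5 stood at 120, 127, 117, 138 and 139 CPM in Het and from 123 through 136 to 217 CPM in WT. The log2 fold change of Rpl5 was -0.19 ± 0.13 (edgeR adjusted p = 0.791), with the WT maximum again in WT 4-3. Rpl11 stood at 50.8, 53.6, 47.7, 51.5 and 53.5 CPM in Het and from 44.3 through 53.3 to 62.7 CPM in WT, a log2 fold change of -0.07 ± 0.10 (edgeR adjusted p = 0.909). The Het libraries were the more alike for both genes, with SDs of 0.11 and 0.07 log2 CPM against 0.26 and 0.17 in WT. For Rpl5 the WT spread includes WT 4-3 at 7.76 log2 CPM, which lay apart from the next WT library at 7.31.

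Rpl39 and Rpl15 had the lowest and the highest estimates of the 60S genes. Rpl39, a very short protein at the end of the exit tunnel, stood at 8.77, 7.37, 6.44, 7.63 and 6.24 CPM in Het and from 5.09 through 9.26 to 10.7 CPM in WT. Its log2 fold change was -0.29 ± 0.17 (edgeR adjusted p = 0.77), and within the prefixes it was 0.21, -0.33 and -0.59, so prefix 1 went the other way. Rpl15 stood at 40.4, 35.3, 36.4, 46.1 and 35.2 CPM in Het and from 27.2 through 32.7 to 42.4 CPM in WT. For Rpl15 the log2 fold change was 0.21 ± 0.11 (edgeR adjusted p = 0.749). Rpl15 is also among the genes altered in Diamond-Blackfan anaemia. Of the 6 proteins at the exit tunnel and its opening (Rpl4, Rpl17, Rpl23a, Rpl26, Rpl35 and Rpl39), 5 had estimates above 0, from 0.01 to 0.16. Of the 6, 0 passed, against 0.0857% of all genes. Rpl38, which is needed for the patterning of the axial skeleton in mice, stood at 9.24, 9.26, 9.37, 9.06 and 7.42 CPM in Het and from 7.31 through 10.3 to 13.8 CPM in WT, a log2 fold change of -0.18 ± 0.15 (edgeR adjusted p = 0.834).

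The paralogs, copies with tissue-restricted or accessory roles, differed widely in level. Of the 7 tested, 1 had an estimate above 0 and 6 below, with a median of -0.06. Rps27l and Rpl7l1 were abundant, at 75.7 ± 9.71 and 22.4 ± 1.13 CPM per kilobase in Het. Rpl7l1, a factor of large-subunit assembly, had an SD of 0.07 log2 CPM in each group, the lowest WT SD of the members tested, and a log2 fold change of -0.01 ± 0.08. Rpl36al and Rpl22l1 stood at 13.4 ± 1.59 and 6.26 ± 1.15 CPM per kilobase in Het, with log2 fold changes of -0.02 ± 0.13 and 0.15 ± 0.18. Rps27l, a p53 target, had a log2 fold change of -0.06 ± 0.12. The edgeR adjusted p was 0.889 for Rpl22l1 and above it for the other 3 genes.

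The remaining paralogs were rare. Rpl39l, known from testis, had 36, 32, 53, 52 and 14 counts in Het and 36 to 63 in WT, a log2 fold change of -0.46 ± 0.27 (edgeR adjusted p = 0.771). Rpl3l, which stands in for Rpl3 in skeletal and heart muscle, had 10, 20, 28, 19 and 24 counts in Het and 7 to 45 in WT. Its log2 fold change was -0.35 ± 0.36 (edgeR adjusted p = 0.872), and within the prefixes it was -1.50, 0.62 and -0.23. The library with most Rpl3l counts, WT 1-3, had a muscle marker sum of 35.1 CPM. WT 1-4, with the highest sum of 218 CPM, had 34 Rpl3l counts, the next most. Het 1-2, with the next highest sum of 94.4 CPM, had 10. The relation over all libraries was not tested. Rps27rt had 10 to 17 counts in Het and 7 to 32 in WT, and shares 90.3% of its windows with other genes. Rpl10l, known from male germ cells, had 1 count, in Het 1-2. Rps19bp1, the binding protein of RPS19, stood at 6.36, 4.59, 5.60, 5.08 and 5.27 CPM in Het and from 4.06 through 5.73 to 6.72 CPM in WT (log2 fold change -0.04 ± 0.16, edgeR adjusted p = 0.974).

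Members tied to inherited disease or to mouse mutants had estimates on both sides of 0. Of 15 genes altered in Diamond-Blackfan anaemia, a failure of red cell production, 8 had estimates above 0 and 7 below, with a median of 0.01. Of the 15, 0 passed, against 0.0857% of all genes, so a list of this size says little by that count. Their estimates ran from -0.19 (Rpl5) to 0.21 (Rpl15). Rps29, another of them, stood at 16.5, 13.7, 14.4, 13.9 and 13.05 CPM in Het and from 9.48 through 16.4 to 19.4 CPM in WT (log2 fold change -0.15 ± 0.16, edgeR adjusted p = 0.873). Of 8 members with known mouse mutants, 4 lay above and 4 below 0, with a median of 0.02. Rps14, whose human counterpart is lost in a form of myelodysplastic syndrome, was among them with a log2 fold change of 0.09 ± 0.12 (edgeR adjusted p = 0.906). The genes with other symbols were near 0 too: Fau had a log2 fold change of 0.11 ± 0.13 (edgeR adjusted p = 0.892) and Rack1 of -0.01 ± 0.12 (edgeR adjusted p = 0.99).

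The canonical genes varied together from library to library, and this variation was wider among WT libraries than between the genotypes. The mean of the 77 log2 CPM values was 5.24 ± 0.07 in the Het group (SD, range 5.16 to 5.32) and 5.23 ± 0.19 in the WT group (SD, range 4.96 to 5.48). The lowest libraries were WT 4-4 at 4.96 and WT 1-1 at 4.99, and the highest was WT 4-3 at 5.48, so all Het libraries lay within the WT range. In WT 4-3, 66 of the 77 genes stood above their own median over the 13 libraries, and in WT 5-3 62. In WT 1-3, WT 4-4 and WT 1-1 only 9, 10 and 11 did. WT 4-3 was the highest library for 30 of the 77 genes. WT 1-1 was the lowest for 29 and WT 4-4 for 27.

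Rpl3 did not follow the other genes. WT 1-1, near the bottom for the canonical mean, had the highest Rpl3 level, and it and WT 4-3 both rounded to 11.88 log2 CPM. In WT 1-1 Rpl3 made up 50.1% of the member counts. Rpl7 too was highest in WT 1-1, at 289 CPM, and these were the 2 canonical genes highest there. The subunits kept step: the mean of the 40S genes exceeded that of the 60S genes by 0.18 ± 0.01 log2 CPM in Het and 0.16 ± 0.03 in WT. The enamel matrix genes took 15.0% of counts in WT 4-4 and 18.8% in WT 1-1, the lowest shares of the 13 libraries, and 20.04% in WT 4-3. The part of tissue composition or RNA quality in this variation was not tested.

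**Figure D4:**
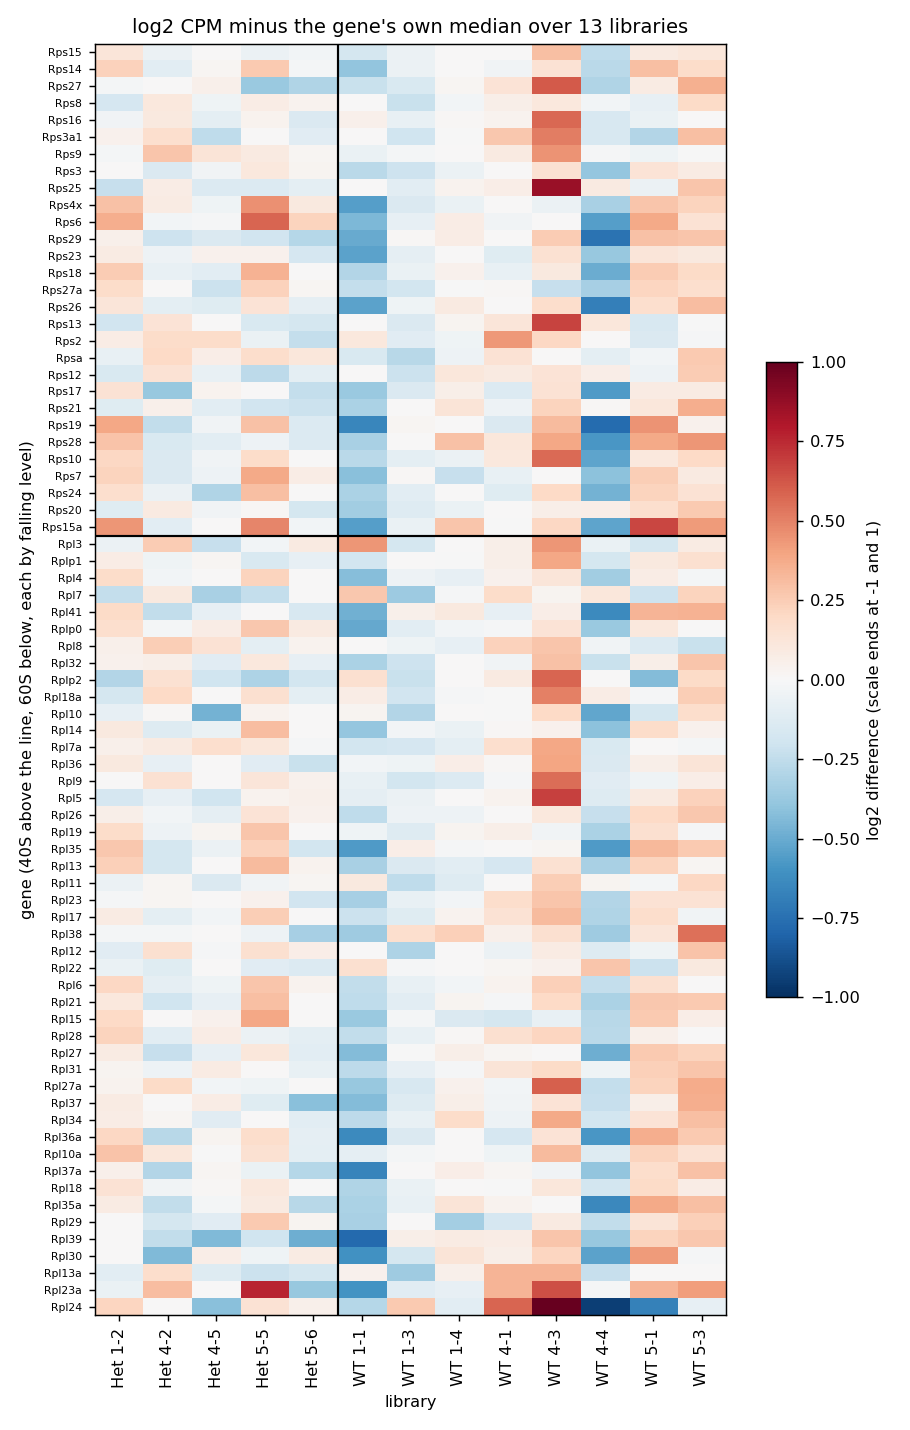
Log2 CPM of each canonical gene reported here minus its own median over the 13 libraries, 40S genes above the line and 60S genes below, Het libraries to the left. Columns WT 1-1 and WT 4-4 are mostly below 0 and WT 4-3 and WT 5-3 mostly above, with Rpl3 high in WT 1-1.

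The sign of the genotype difference was not the same in the 3 prefixes, a contrast that was not tested. In prefix 1, with 1 Het and 3 WT libraries, 62 of 77 canonical genes were higher in Het, with a median difference of 0.20 log2 CPM. In prefix 4, with 2 and 3 libraries, 30 were higher and the median was -0.03. In prefix 5, with 2 and 2 libraries, 19 were higher and the median was -0.12. The low library WT 1-1 belongs to prefix 1, and the low WT 4-4 and the high WT 4-3 to prefix 4. Of the 85 members, 25 (29.4%) had the same sign in all 3 prefixes, against 36.3% of all genes tested. Prefix 1 has a single Het library, and no test was run within a prefix.

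**Figure D5:**
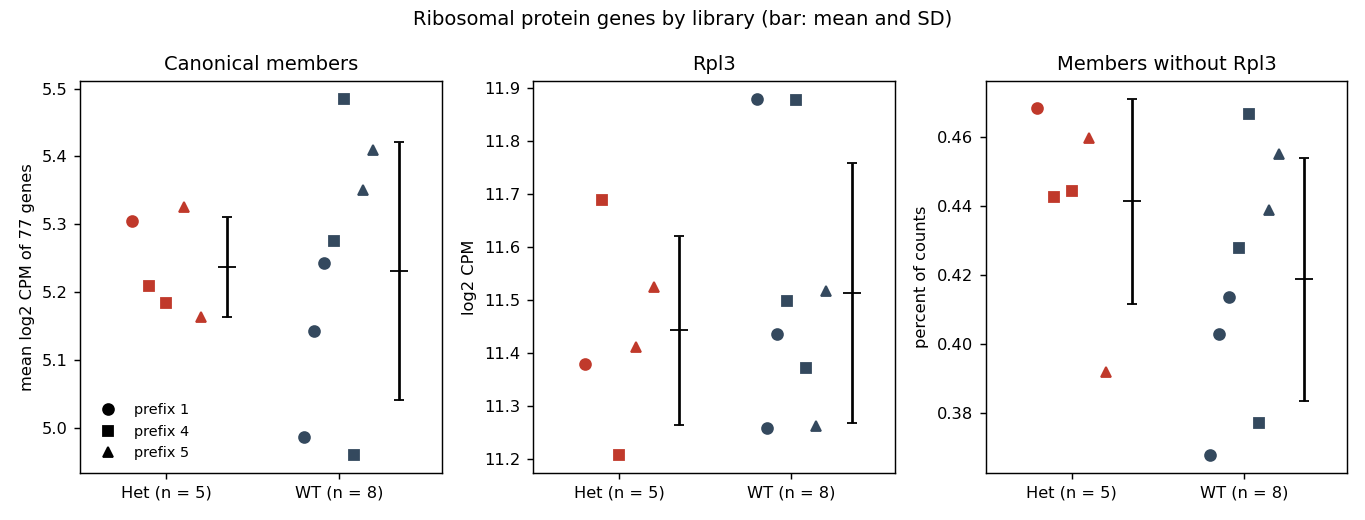
Mean log2 CPM of the 77 canonical genes, log2 CPM of Rpl3, and percent of counts on the members without Rpl3, by library, with genotype on the x axis and the prefix as symbol. Bars are mean and SD. In each panel the ranges of the 5 Het and 8 WT libraries overlap, and for the canonical mean the WT SD of 0.19 exceeds the Het SD of 0.07.

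Other genes of protein synthesis were read from the same edgeR fit. In every list below 0 genes passed the adjusted threshold, which 0.0857% of all genes passed, so lists of this size say little by that count. At an unadjusted p under 0.05, the shares of all genes were 2.72% higher and 4.18% lower in Het. Of 20 elongation factors and other TOP messages, 10 lay above 0 and 10 below (median 0.03). Eef2, which moves the ribosome along the message, had the smallest p of them with a log2 fold change of 0.21 ± 0.14 (edgeR adjusted p = 0.791). Of 37 initiation factors, 23 lay above 0 (median 0.04), and Eif3g, a subunit of the factor that holds the small subunit ready, had a log2 fold change of -0.19 ± 0.10 (edgeR adjusted p = 0.749). Of 77 mitochondrial ribosomal proteins, 45 lay above 0 (median 0.02), and Mrpl49 had a log2 fold change of 0.21 ± 0.10 (edgeR adjusted p = 0.732). Of 97 ribosome assembly factors, 52 lay above 0 (median 0.01), with 1 above and 3 below at an unadjusted p under 0.05. Fbl, the methyltransferase fibrillarin that modifies rRNA, had the smallest p of these, with a log2 fold change of -0.36 ± 0.09 (edgeR adjusted p = 0.232). Ipo7, an importin that carries ribosomal proteins into the nucleus, was at -0.29 ± 0.10 (edgeR adjusted p = 0.53). Of 20 genes of the RNA polymerase I machinery, which transcribes rRNA, 10 lay above 0 and 2 had an unadjusted p under 0.05, both below. Polr1b, its second largest subunit, had a log2 fold change of -0.51 ± 0.13 (edgeR adjusted p = 0.211) and Ttf1, the termination factor, of -0.30 ± 0.14 (edgeR adjusted p = 0.699).

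Upstream of the ribosome, 28 genes of the TORC1 pathway and Myc had a median of -0.02, with 2 above and 1 below at an unadjusted p under 0.05 (all genes, 2.72% and 4.18%). Rps6kb1, the kinase of RPS6, had a log2 fold change of -0.38 ± 0.14 (edgeR adjusted p = 0.565), and Rragc, a GTPase that brings TORC1 to the lysosome, of 0.25 ± 0.11 (edgeR adjusted p = 0.675). Of 17 p53 targets tested, 7 lay above 0 and 10 below, with a median of -0.01 and 0 at an unadjusted p under 0.05 (all genes, 6.9%). Zmat3 had the smallest p of them, with a log2 fold change of -0.37 ± 0.19 (edgeR adjusted p = 0.749).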

How the data were processed

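Per the labels, Nextera XT libraries without strand information were prepared from total RNA of enamel organs. They were pooled and sequenced on a NextSeq 500 in 2 runs of 75-base single reads. STAR 2.5.2a and GRCm38 are named in the submitters' processing notes. No source used here names the counting tool or its annotation, so how reads that fit several copies of a gene were treated is unknown. The authors deposited raw counts per gene for 13 libraries, and every value here was computed from these counts. Libraries held 18852382 to 26508410 counts. Columns name the genotype but no replicate number of the labels. Per the design text each genotype's libraries came from as many mice, so each library was taken as 1 mouse.

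Genes were filtered with filterByExpr (count minimum 10), leaving 16328, and Het was compared with WT by edgeR 4.0.16 (R 4.3.3). The fit used TMM factors and robust glmQLFit, the test was glmQLFTest, and p-values were adjusted by Benjamini-Hochberg over all genes tested, with 0.05 as threshold. The biological coefficient of variation was 0.227. CPM values use TMM-scaled library sizes, and log2 CPM adds a prior count of 2. Shares of counts use unscaled totals. Levels per kilobase use the union of annotated exons (GENCODE mouse M21, GRCm38). SEs derive from the F statistic. Promoter windows are RefSeq, GRCm38.p6. Intervals of shares are exact (Clopper-Pearson). The code was tested on simulated data. Alternatives used limma 3.58.1 and DESeq2 1.42.0.

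The members and gene lists were chosen with earlier results of these data known, so no test over a list was made. Named members are the 6 highest and 6 lowest canonical genes per kilobase, the 5 largest and 5 smallest log2 fold changes, the 6 smallest p, every paralog, Rps19bp1, Rpl5, Rpl11 and the stalk genes, up to 4 genes each of the anaemia and mutant lists, and the 2 of smallest p in other lists. Rpl7a, Rps27 and Rps3 and the genes named only as list members were chosen after their values were seen. The values of some genes are not reported here by name, and the figures leave these genes out.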

Additional observations from a re-analysis of the deposited data

Results flagged for a closer look

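The outermost sample of a group was set against its nearest neighbour and the group's range (Dixon's test at 95%) for 84 pairs of value and genotype, and 6 lay apart. Chance gives about 1 in 20. Het 4-2 was the highest Het library for Rpl13a at 3.06 log2 CPM (next 2.78) and for Rplp2 at 6.78 (next 6.45), and the lowest for Rpl30 at 3.04 (next 3.44). WT 4-3 was the highest WT library for Rps25 at 7.33 log2 CPM (next 6.75) and for Rpl5 at 7.76 (next 7.31). Het 5-6 was the lowest Het library for Rpl38 at 2.91 log2 CPM (next 3.19).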

How the results depend on the processing

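Over the 25 other settings, 0 ribosomal protein genes passed in any, and the smallest adjusted p was 0.449 (Rpl15, edgeR, without WT 5-1). Genes called of all tested numbered 14, and 27 with no filter, 25 with at least 1 CPM in 5 libraries, 30 with the prefix as a term, 74 with DESeq2 and 27 with limma-voom. They numbered 2 without Het 1-2 and WT 1-4, 0, 1 and 2 without prefixes 1, 4 and 5, and 6 to 22 with 1 library left out. Members with an unadjusted p under 0.05 numbered 0, and 2 with no filter, 1 with the prefix term, 4 with limma-voom, 1, 1 and 2 without prefixes 1, 4 and 5, and 0 to 5 with 1 library left out (5 without WT 5-1). Their share was below that of all genes in each of these fits: 2.33% against 7.14% with no filter, 1.18% against 9.82% with the prefix term, 4.71% against 8.72% with limma-voom, and 5.88% against 9.06% without WT 5-1. Members with such a p were Rps25 and Rps6 with no filter, Rps25 with the prefix term, and Rpl15, Rplp0, Rps4x and Rps6 with limma-voom. Without WT 5-1 they were Rpl15, Rplp2, Rps25, Rps4x and Rps6. The median log2 fold change of all tested members ran from -0.08 to 0.05. The settings that leave out prefixes or both muscle-rich libraries, the share without Rpl3, the main-transcript length and the run of 10 were chosen after seeing the data. No paired analysis was possible because the columns carry none of the labels' replicate numbers, and the prefix term was the only block they allow.

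Of 848 alternatives for 34 named members, 53 in 13 members changed sign, each from an estimate that had not passed. With limma-voom this gave 0.019 for Rps15, 0.032 for Rpl24, -0.0094 for Rpl23a, 0.011 for Rpl36al and 0.0035 for Rps19bp1. The prefix term gave -0.0643 for Rpl23a and no filter 0.000266 for Rpl7l1. Without Het 1-2 and WT 1-4 Rpl7l1 was 0.019. Without prefix 1 the values were -0.13 for Rpl23a, -0.095 for Rps15a, 0.20 for Rpl3l, 0.047 for Rpl7l1 and -0.025 for Rps14. Without prefix 4 they were 0.018 for Rps15, 0.33 for Rpl24, 0.025 for Rpl30, 0.017 for Rpl36al and 0.021 for Rps27l. Without prefix 5 they were 0.048 for Rps15, 0.013 for Rpl30, 0.052 for Rps20, 0.034 for Rpl36al, 0.051 for Rps19bp1 and 0.019 for Rps29. With 1 library left out the estimates ran from -0.051 to 0.030 for Rps15, -0.22 to 0.13 for Rpl24, -0.18 to 0.13 for Rpl23a, -0.012 to 0.17 for Rps15a, -0.10 to 0.050 for Rpl30, -0.086 to 0.031 for Rpl36al, -0.024 to 0.028 for Rpl7l1, -0.12 to 0.0013 for Rps27l and -0.10 to 0.011 for Rps19bp1. The cause was not tested.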
